A study of Apocynum venetum with 18 samples.

Results

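In leaves of Apocynum venetum, a fibre shrub of saline ground, 217 assembled transcripts were low after 6 h in salt solution and stood above their starting level by 48 h. They were chosen from mean levels at 3 of the 6 sampling times. Levels are in CPM, the count of a transcript scaled to the size of its library after that size was itself adjusted by the TMM method. A level is thus not a plain share of the library. Each had a mean of at least 2 CPM at 0 h, a 6 h mean of at most 50% of the 0 h mean, and a 48 h mean of at least 2 times the 0 h mean. In addition, every 48 h library had to lie above every 6 h library, and the mean over all 18 libraries had to be under 700 CPM. These 217 reversal transcripts were 0.48% of the 45222 that passed a filter on low counts, out of 53545 in the deposited table.

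Leaves were taken at 0 h and 2 h, later on the same course at 6 h and 12 h, and last at 24 h and 48 h, with 3 RNA libraries per time, numbered as in their titles. All 18 libraries, those of 0 h included, carry the label of 300 mmol/L NaCl in the nutrient solution. The design text speaks of wild seedlings and of control plants kept without NaCl, but no library used here is labelled as unsalted. Whether the 0 h plants had met the salt is not settled by the labels. Time in salt cannot be told apart from handling, and the labels give no clock hour. If all plants started at the same hour, 0 h, 24 h and 48 h share an hour of day. At 2 h, 6 h and 12 h time in salt then cannot be told apart from hour of day. This touches the comparisons of 24 h with 2 h and with 12 h. The labels do not tie each library to a plant of its own, so a p-value here measures only the spread between libraries, which may be technical. In bulk leaf RNA, fewer cells of a type and less RNA per cell cannot be told apart.

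Salt around the roots acts on leaves in stages. The osmotic effect comes first and limits water uptake and growth, and sodium and chloride build up in the leaf later, when ion transport, compatible solutes and protection from oxidation come into play. Levels of leaf transcripts can move one way in the first hours and the other way after acclimation, and many leaf transcripts also cycle with the day.

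The transcripts are known by assembly IDs. Gene names deposited with the table were not used, because many stated alignment lengths exceeded the transcripts that carry them. Taken as amino acids, 269 of 829 (32.4%) exceeded 1.1 times the inferred length of the transcript. Of the 217 reversal transcripts 8 (3.69%) carry a deposited name, against 6.46% of the whole table. Leaf identity could not be checked against markers for the same reason, and no function can be given for a transcript. They are described by level, length and time, and 4 are named by ID.

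The 217 transcripts were spread over 216 assembly components, by the numbers in their IDs. No sequences were compared, so whether each came from a separate group of sequences was not tested. Their lengths ran from 325 to 8169 nucleotides with a median of 1593. The median was 1009 nucleotides for all transcripts that passed the filter and 1973 for those with at least 2 CPM at 0 h. The last digit of the assembly ID was 6, 7 or 8 in 152 of the 217 (70.0%), against 31.9% of all transcripts that passed the filter. These were the commonest last digits among the members, in 34, 76 and 42 of them, and the difference from all transcripts was not tested. The share was 53.3% among the 4006 transcripts with at least 2 CPM at 0 h and at least 2 times that level at 48 h. No source used here says what that digit stands for.

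The values that chose the members are given first, as a description without a test. The median over members of the mean level was 12.2 CPM at 0 h, 6.04 CPM at 2 h, 2.80 CPM at 6 h, 6.92 CPM at 12 h, 25.5 CPM at 24 h and 61.9 CPM at 48 h. At 6 h the members stood at 0% to 49.9% of their 0 h mean, with a median of 32.5%. At 48 h they stood at 2.00 to 187 times their 0 h mean, with a median of 3.70 times. Every 6 h library lay below every 0 h library in 114 of the 217 (52.5%), against 12.1% of all transcripts that passed the filter. Every 48 h library lay above every 0 h library in 171 (78.8%), against 25% of all. Both shares follow from the choice of members and nothing is read from them.

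Close to the limits of the rule, the members shaded into transcripts that were not counted. The highest 6 h share inside the rule was 49.9%, in a transcript of 2001 nucleotides with 6.52 CPM at 0 h. The lowest outside it was 50.1%, in one of 2564 nucleotides with 55.9 CPM at 0 h. At 48 h the smallest ratio inside was 2.002 and the largest outside was 1.994. The lowest 0 h mean inside was 2.02 CPM and the highest outside was 1.99 CPM. The highest overall mean inside was 659 CPM, and the 1 transcript kept out by the limit of 700 CPM had a mean of 982 CPM.

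The 0 h libraries were unlike each other for these transcripts, and the choice of members rests on their mean. Summed over the 217 members, the level was 7018, 4618 and 14637 CPM in the 0 h libraries 1, 2 and 3. The third was thus above the sum of the other libraries of its time. It was the highest of its time in 160 of the 217 members, and the second was the lowest in 145. Over all transcripts that passed the filter, these 2 libraries had those places in 29.2% and 35.7%. Set against a single 0 h library, the 6 h mean was at most 50% and the 48 h mean at least 2 times in 142 members for library 1, in 82 for library 2 and in 131 for library 3. In 43 members the second 0 h library was itself below the 6 h mean.

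The second library at 2 h also stood apart, and the labels of both second libraries are in doubt. Across all 45222 transcripts, the library labelled 0 h 2 had Spearman correlations of 0.914 to 0.920 with the 3 libraries of 2 h, above its 0.880 and 0.893 with the other libraries of 0 h. The library labelled 2 h 2 had 0.90 and 0.916 with 0 h libraries 1 and 3, and 0.882 and 0.902 with 2 h libraries 1 and 3, so it lay between the times. The labels were kept, and whether they are right was not tested, so every mean at 0 h or 2 h and every comparison with 2 h carries this doubt. The library labelled 2 h 2 was the highest of the 2 h libraries in 147 members, and in 119 of the 145 members in which 0 h library 2 was the lowest at 0 h. Over all transcripts with their lowest 0 h value in library 2, it was the highest at 2 h in 53.8%. With both libraries left out the rule chose 206 transcripts, of which 145 were among the 217. Leaving out one library of 0 h, 6 h or 48 h in turn kept between 126 and 212 of the 217. The fewest were kept without 0 h library 3, where the rule chose 193 transcripts. A core of 69 members met the rule in all 9 of these leave-outs, and 124 met it in at least 8.

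Over the course, the member levels dipped early, were lowest at 6 h and passed the start between 12 h and 24 h. The summed level of the 217 was 8758 ± 5231 CPM at 0 h, 4615 ± 1121 CPM at 2 h, 2394 ± 316 CPM at 6 h, 5245 ± 1667 CPM at 12 h, 16667 ± 5469 CPM at 24 h and 38331 ± 10317 CPM at 48 h (mean ± SD, n = 3 libraries). The SD at 0 h was the largest in proportion to its mean. In the libraries at 6 h the sums were 2229, 2758 and 2195 CPM, below each library of every other time. At 48 h they were 30904, 33978 and 50112 CPM, above each library of every other time. Both statements concern times that the rule used. As a plain share of the counts that passed the filter, the members made up 0.815%, 0.526% and 1.63% in the 0 h libraries. In those of 48 h they made up 2.3%, 2.7% and 4.23%, a smaller rise than in CPM.

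**Figure D1:**
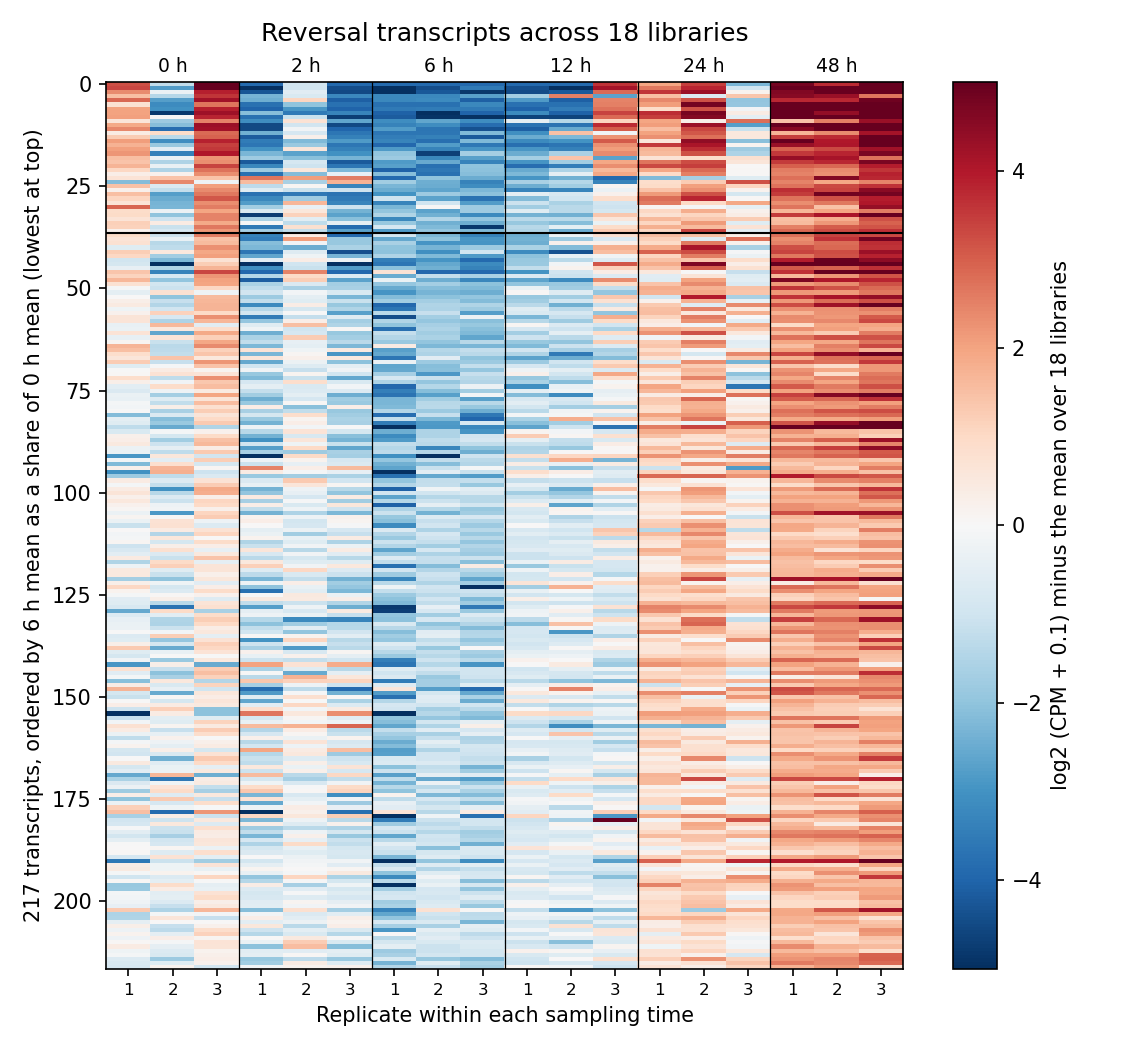
Levels of the 217 reversal transcripts (rows, ordered by the 6 h mean as a share of the 0 h mean, lowest at the top) in 18 libraries (columns, replicates 1 to 3 within each sampling time). Colour is log2 (CPM + 0.1) minus the mean of the row, with colours saturated at -5 and 5, and the black line separates the 37 members with a 6 h mean under 10% of the 0 h mean, in which 0 h replicate 2, 12 h replicate 3 and 24 h replicate 3 stand apart from the other libraries of their time.

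Between the times that set the rule, the level at 2 h and 12 h was mostly below the start. The 2 h mean was a median of 54.5% of the 0 h mean, and it was at most 50% in 103 members, between 50% and 100% in 73 and above the start in 41. Every 2 h library lay below every 0 h library in 25 members (11.5%), against 7.27% of all transcripts that passed the filter, and the reverse held in 11 (5.07%), against 9.88% of all. The 12 h mean was a median of 57.7% of the 0 h mean, and the same counts were 85, 99 and 33. By 24 h the median was 177%, and 181 of the 217 were above the start, 87 of them by at least 2 times. All 23972 transcripts with at least 2 CPM at 0 h had medians of 97.6% at 2 h, 91.6% at 12 h and 84.1% at 24 h. These percentages share the 0 h libraries with the rule and are a description.

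The lowest mean fell at 6 h in 176 members, at 2 h in 28 and at 12 h in 13. The highest mean fell at 48 h in 203 members, at 24 h in 11, at 2 h in 2 and at 12 h in 1. The member with its peak at 12 h, of 5005 nucleotides, had 5.83, 3.86 and 432 CPM in the 12 h libraries, so that its peak lay in 1 library. It had 6.37, 5.98 and 17.7 CPM at 0 h and 25.9, 30.6 and 67.5 CPM at 48 h.

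Comparisons among 2 h, 12 h and 24 h use libraries that did not enter the ratios of the rule, and these were tested. The test was edgeR's quasi-likelihood F-test over all 45222 transcripts, fitted to the 9 libraries of those times. A call needed an adjusted p under 0.05, by the Benjamini-Hochberg method, and a log2 change of at least 1 in size. The 3 comparisons share libraries pairwise, so their counts are not independent of each other.

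At 24 h far more reversal transcripts were called higher than lower relative to 2 h. At 24 h against 2 h, 91 of the 217 were called higher (41.9%), against 8.54% of all transcripts tested. Only 2 were called lower (0.922%), against 7.93% of all, and 124 were not called. The median log2 change was 1.80 for the members and -0.08 for all transcripts, and the estimate was above 0 in 203 members. The 91 called higher had a median log2 change of 2.48. Every 24 h library lay above every 2 h library in 127 members (58.5%), against 19.4% of all, and the reverse held in 2, against 20.5% of all. In the core of 69 members, 30 were called higher and 1 lower, in the same fit that called 8.54% and 7.93% of all.

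The count of 91 depends on which libraries are in the fit. It was 55 without 2 h library 1, 45 without 2 h library 3, 58 without 24 h library 1 and 52 without 24 h library 2, while 5.57% to 6.67% of all transcripts were called higher. It was 111 without 2 h library 2, with 8.77% of all called higher. Members were also chosen without 0 h library 2 and tested without 2 h library 2. Of these 206, 113 were called higher (54.9%, against 8.48% of all) and 3 lower (1.46%, against 7.69% of all). With members chosen without 0 h library 3, 76 of 193 were called higher (39.4%, against 8.54% of all) and 3 lower (1.55%, against 7.93% of all). The median log2 change of the members lay between 1.60 and 2.55 in these fits.

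Between 12 h and 24 h the calls were all in one direction, though most members were not called. With 24 h set against 12 h, 47 members were called higher (21.7%), against 2.11% of all transcripts tested. None was called lower, against 2.67% of all. Lower calls were also few among transcripts that met only a part of the rule. They were 0.766% of those with the 6 h dip but under 2 times the 0 h mean at 48 h. Among those with the 48 h rise but without the dip they were 1.02%. At an unadjusted p under 0.05, 127 members were higher (58.5%) and 0 were lower, against 10.8% and 12.5% of all transcripts. The DESeq2 test called 102 higher (47.0%) and 0 lower, against 4.86% and 5.33% of all. The median log2 change was 1.63 for the members and -0.06 for all transcripts, with 212 of 217 estimates above 0. Every 24 h library lay above every 12 h library in 114 members (52.5%), against 14.8% of all. The reverse held in 0 members, against 16.5% of all. The called number was 28 without 12 h library 1, 25 without 12 h library 2 and 18 without 12 h library 3, and 19 without 24 h library 1 and 31 without 24 h library 2, with 0.274% to 1.13% of all transcripts called higher in those fits.

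Between 2 h and 12 h members were called in both directions. At 12 h against 2 h, 7 were called higher (3.23%), against 4.21% of all transcripts tested, and 13 were called lower (5.99%), against 3.2% of all. Among the 23886 transcripts with at least 2 CPM at 0 h and a mean under 700 CPM, 5.33% were called higher and 5.56% lower, so the share of members called lower was near that of transcripts within the same level limits. The median log2 change was 0.26 for the members and -0.02 for all, and 118 of 217 estimates were above 0. No overlap was seen in 18 members with all 12 h libraries higher (8.29%, against 17.6% of all) and in 27 with all 12 h libraries lower (12.4%, against 16.3% of all).

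Both counts moved with single libraries. The number called higher was 21 without 2 h library 2 (9.68%, against 4.35% of all transcripts) and 27 of 206 with members also chosen without 0 h library 2 (13.1%, against 4.16% of all), both above the background. It was 1 without either of the other 2 h libraries and 2 without 12 h library 2 or 12 h library 3, where 1.48% to 2.11% of all were called higher. The number called lower was 21 without 2 h library 2 (9.68%, against 3.97% of all), 7 without 2 h library 1, 5 without 2 h library 3, 5 without 12 h library 2 and 3 without 12 h library 3, with 0.896% to 1.46% of all called lower in the last 4. The median of the members was 0.88 without 2 h library 2 and -0.27 without 12 h library 3, so its sign depended on 1 library.

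**Figure D2:**
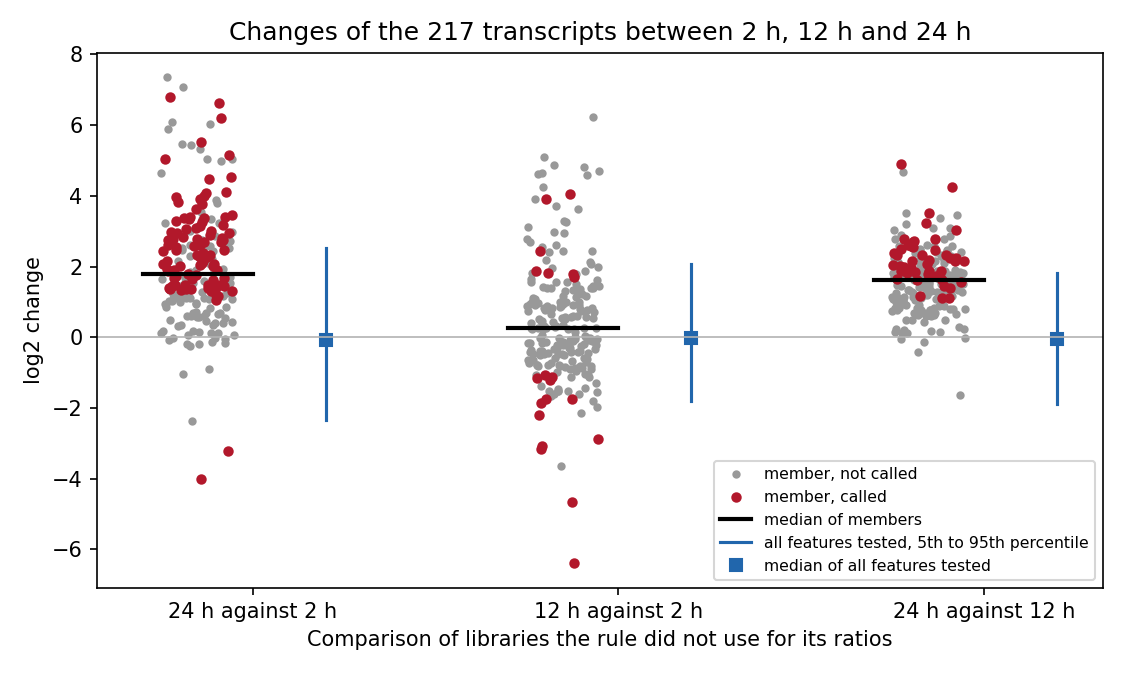
Fitted log2 changes (vertical axis) of the 217 reversal transcripts in the 3 tested comparisons, with red points called, grey points not called and a black line at the median of the members. The blue square and line give the median and the 5th to 95th percentile of all 45222 transcripts tested, and the member medians are 1.80 at 24 h against 2 h, 0.26 at 12 h against 2 h and 1.63 at 24 h against 12 h.

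The reversal transcripts were a small share of those that moved at either step. They were 7.67% of the 2829 transcripts that had at most 50% of the 0 h mean at 6 h, and 5.49% of the 3954 that had at least 2 times the 0 h mean at 48 h, both counted within the same level limits. The 3735 transcripts that reached that level at 48 h without the dip at 6 h had a like share called higher at 24 h against 2 h, 43.7% beside 41.9% of the reversal transcripts. At 12 h against 2 h, 17.1% of them were called higher, beside 3.23% of the reversal transcripts. For 24 h against 12 h it was 12.8% of them, beside 21.7% of the reversal transcripts. The 2610 transcripts with the dip but under 2 times the 0 h mean at 48 h had 2.03% called higher and 19.4% called lower at 24 h against 2 h. These shares are set side by side without a test of their difference. The opposite pattern was met by 378 transcripts. It asked for at least 2 times at 6 h, at most 50% at 48 h and every 48 h library below every 6 h library.

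The depth of the dip divided the members unevenly. In 37 of them the 6 h mean was under 10% of the 0 h mean, a limit set after the values were seen, with a median of 2.78%. In the other 180 the 6 h mean was 10.2% to 49.9%, with a median of 35.5%. One of the 37, of 1622 nucleotides, had 0 counts over the 3 libraries at 6 h, which allows up to 3 counts, and 1537 counts over the 3 libraries at 0 h. In 5 members the 6 h libraries held at most 3 counts in all.

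Within each time other than 6 h, the 37 deep-dipping members moved together by library. Their summed level was 923, 159 and 2839 CPM in the 0 h libraries 1, 2 and 3, and 60.5, 310 and 47.7 CPM in those of 2 h. At 6 h it was 66.4, 36.9 and 31.5 CPM, at 12 h 56.3, 89.4 and 1138 CPM, at 24 h 1351, 3016 and 270 CPM and at 48 h 3337, 4025 and 7189 CPM. The third 12 h library was therefore above the second 0 h library, and the third 24 h library was below 2 of the 3 libraries of 0 h. The 6 h and 48 h libraries did not overlap, which the rule asks of each member.

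The same libraries stood apart in most of the 37 and in fewer of the others. The third 12 h library was over 5 times both others of its time in 22 of the 37 (59.5%), against 11 of the other 180 (6.11%) and 1.42% of all transcripts that passed the filter. The third 24 h library was under 50% of both others in 24 of the 37 (64.9%), against 20.0% of the 180 and 5.96% of all. The second 2 h library was over 2 times both others in 26 of the 37 (70.3%), against 35.0% of the 180 and 11.4% of all. At 0 h the order of library 3, then 1, then 2 held in 33 of the 37 (89.2%), against 56.7% of the 180 and 17.7% of all. The limits differ between times and were shaped to the libraries that stand apart, and the 0 h values also chose the members and the 37. These shares are therefore a description, and the part of these libraries in the dip was not tested.

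**Figure D3:**
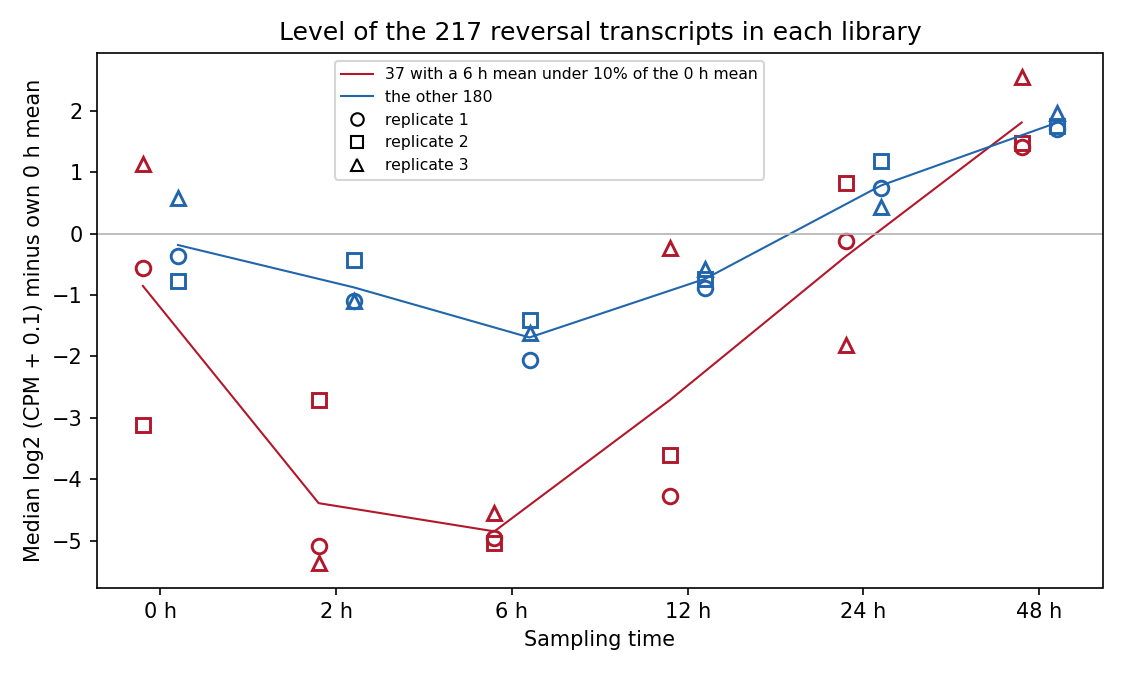
Median over transcripts of log2 (CPM + 0.1) minus the transcript's own 0 h mean, for each library, in the 37 members with a 6 h mean under 10% of the 0 h mean (red) and the other 180 (blue). Symbols are replicates and lines join the means of the 3 libraries of a time. The red points spread widely at 0 h, 2 h, 12 h and 24 h and lie close together at 6 h, between -5.04 and -4.55. Their median levels at 6 h, 0.201 to 0.22 CPM, are near the added 0.1 CPM, which limits how far those points can spread. The blue points lie close together at 12 h, between -0.88 and -0.58.

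Calls among the deep-dipping members were made at 24 h against 2 h and not at 24 h against 12 h. In the comparison of 24 h with 2 h, 8 of the 37 were called higher (21.6%) and 1 lower (2.70%), against 8.54% and 7.93% of all transcripts tested, with a median log2 change of 3.55. In the other 180 there were 83 higher (46.1%) and 1 lower (0.556%), with a smaller median of 1.53. In that of 24 h with 12 h none of the 37 was called (median 1.96), where 2.11% of all transcripts were called higher, and 10 of the 37 were higher at an unadjusted p under 0.05. All 47 calls were among the 180 (26.1%, median 1.58). A smaller share of calls thus went with larger median changes in the 37, whose libraries differed more within a time. The 37 were already low at 2 h, at a median of 6.26% of the 0 h mean, against 64.6% in the other 180. At 24 h the medians were 118% and 192%, so the larger change from 2 h in the 37 went with a lower 2 h level and not with a higher 24 h level.

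The most abundant of the 37, of 1674 nucleotides, shows that spread. It had 313, 51.0 and 866 CPM at 0 h, 9.41, 114 and 7.21 CPM at 2 h, 10.5, 7.30 and 10.1 CPM at 6 h, 9.97, 7.18 and 326 CPM at 12 h, 247, 971 and 21.7 CPM at 24 h, and 577, 751 and 1394 CPM at 48 h. Its 6 h libraries lay close together. One library each at 2 h and 12 h was more than 10 times the others of its time, and the groups of 2 h, 12 h and 24 h overlapped. Its log2 change at 24 h against 2 h was 3.24 ± 1.74 (SE) and was not called (edgeR adjusted p = 0.22).

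A further 4 members are named by a rule on the comparison of 24 h with 2 h, among those with at least 5 CPM in every 48 h library. They are the 2 with the largest called rise and the 2 with the lowest change. The first, TRINITY_DN16036_c0_g1_i3_8, has 761 nucleotides. It had 27.9, 0.147 and 130.4 CPM at 0 h, 1.49, 0.497 and 0.601 CPM at 2 h, 0.322, 0.044 and 0.328 CPM at 6 h, 0.683, 0.318 and 71.8 CPM at 12 h, 90.5, 188 and 9.07 CPM at 24 h, and 329, 146 and 478 CPM at 48 h. All 24 h libraries were above all 2 h libraries, and the second 0 h library was as low as those of 6 h. Its log2 change at 24 h against 2 h was 6.79 ± 1.99 (SE), called at an edgeR adjusted p of 0.039.

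That call for TRINITY_DN16036_c0_g1_i3_8 was lost when single libraries were left out. The adjusted p was 0.087 without 2 h library 1, 0.089 without 2 h library 2, 0.12 without 2 h library 3, 0.072 without 24 h library 1 and 0.095 without 24 h library 2, with log2 changes of 5.85 to 7.44. At 12 h against 2 h its log2 change was 4.81 ± 1.85 (SE), not called (edgeR adjusted p = 0.14), and it was -0.77 without 12 h library 3.

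The second riser, TRINITY_DN8601_c0_g1_i1_7, has 1916 nucleotides. It had 8.45, 0.343 and 18.3 CPM at 0 h, 0.128, 0.153 and 0.129 CPM at 2 h, 0.282, 0.748 and 0.615 CPM at 6 h, 2.05, 1.64 and 3.34 CPM at 12 h, 13.0, 27.3 and 1.53 CPM at 24 h, and 33.5, 85.9 and 82.4 CPM at 48 h. Its lowest level was at 2 h and not at 6 h, and its mean was higher at each later time. The third 24 h library was below all 12 h libraries, so 12 h and 24 h overlapped. Its log2 change at 24 h against 2 h was 6.61 ± 1.00 (SE), called at an edgeR adjusted p of 0.0022 and at 0.016 or less in every other setting run. Its 2 h levels were near 0, so the size of the change is less certain than its direction. With limma on log2 FPKM it was 2.43 with a pseudocount of 1 and 4.51 with 0.1. At 12 h against 2 h the edgeR log2 change was 4.04 ± 0.95 (SE), with an edgeR adjusted p of 0.030. That p was between 0.052 and 0.10 with any one of these 6 libraries left out.

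The 2 lowest changes belonged to transcripts that were highest at 2 h among the first 5 times. TRINITY_DN17415_c0_g4_i1_7, of 911 nucleotides, had 2.29, 3.82 and 3.89 CPM at 0 h, 9.41, 6.23 and 8.59 CPM at 2 h, 0, 0.264 and 0.164 CPM at 6 h, 0.091, 0.182 and 0 CPM at 12 h, 0.216, 0.365 and 0.870 CPM at 24 h, and 9.71, 36.4 and 20.1 CPM at 48 h. Its 2 h libraries were all above those of 0 h, those of 6 h, 12 h and 24 h were all under 1 CPM, and those of 48 h were again above all others. Its log2 change was -4.01 ± 0.68 (SE) at 24 h against 2 h (edgeR adjusted p = 0.0037) and -6.39 ± 0.80 (SE) at 12 h against 2 h (edgeR adjusted p = 0.0038). Both calls held in every setting that tested this transcript, with adjusted p of at most 0.017 and 0.020. The filter of 10 CPM in 3 libraries left it out.

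TRINITY_DN17300_c0_g1_i2_7, of 1499 nucleotides, had 3.39, 2.16 and 2.69 CPM at 0 h, 6.01, 6.66 and 15.2 CPM at 2 h, 0.242, 0.616 and 2.42 CPM at 6 h, 0.637, 0.136 and 0.316 CPM at 12 h, 0.324, 0.304 and 2.28 CPM at 24 h, and 9.04, 21.0 and 8.44 CPM at 48 h. The 2 h libraries were above all of 0 h, 6 h, 12 h and 24 h, and one of them was within the range of 48 h. Its log2 change was -3.21 ± 0.82 (SE) at 24 h against 2 h (edgeR adjusted p = 0.022) and -4.66 ± 0.90 (SE) at 12 h against 2 h (edgeR adjusted p = 0.014). At 24 h against 2 h the adjusted p was 0.083 without 2 h library 3, 0.070 without 24 h library 1 and 0.068 without 24 h library 2. At 12 h against 2 h it was 0.054 without 2 h library 3, 0.066 without 12 h library 2 and 0.065 without 12 h library 3.

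**Figure D4:**
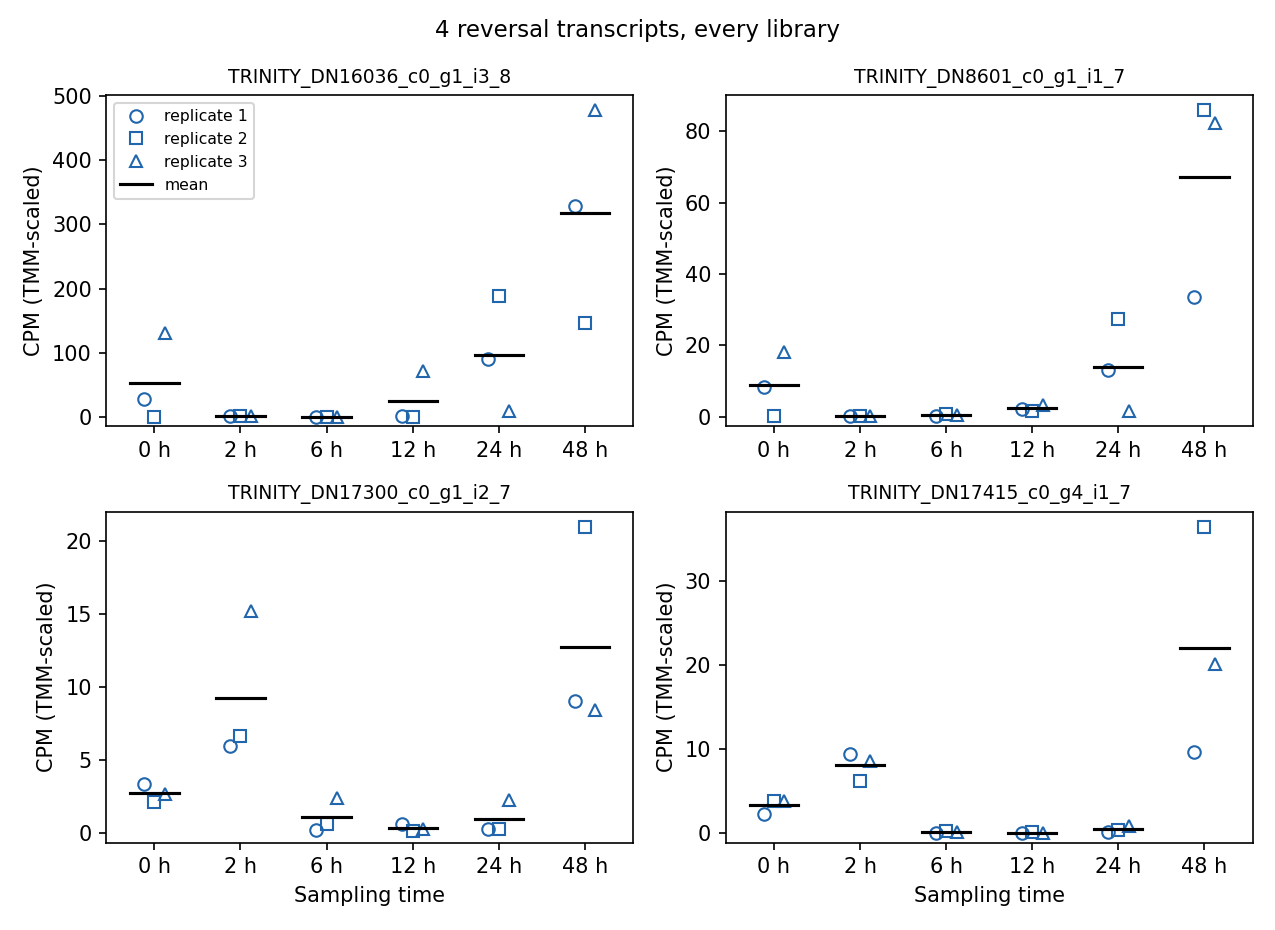
CPM (vertical axes, linear and on a separate scale in each panel) of the 4 named transcripts in every library by sampling time, with replicates as symbols and the mean of 3 libraries as a black bar. The upper 2 transcripts are near 0 at 2 h and reach means of 318 and 67.3 CPM at 48 h, and the lower 2 peak first at 2 h, fall to under 1 CPM at 12 h and reach 12.8 and 22.0 CPM at 48 h.

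Other members, chosen after their values were seen, show the range of shapes. The one with the smallest adjusted p at 24 h against 2 h has 1336 nucleotides. It had 13.4, 7.94 and 31.5 CPM at 0 h, 8.48, 9.64 and 7.17 CPM at 2 h, 4.27, 8.62 and 5.87 CPM at 6 h, 10.7, 9.91 and 9.87 CPM at 12 h, 67.0, 61.9 and 58.1 CPM at 24 h, and 122, 144 and 153 CPM at 48 h. It stayed between 4.27 and 10.7 CPM at 2 h, 6 h and 12 h and was higher at 24 h, with no overlap between 12 h, 24 h and 48 h. Its log2 change was 2.89 ± 0.19 (SE) at 24 h against 2 h (edgeR adjusted p = 0.00024) and 2.62 ± 0.18 (SE) at 24 h against 12 h (edgeR adjusted p = 0.00089).

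A transcript of 1113 nucleotides rose already by 12 h. It had 2.12, 3.14 and 4.53 CPM at 0 h, 2.04, 2.22 and 2.49 CPM at 2 h, 0.483, 1.23 and 1.03 CPM at 6 h, 9.51, 7.59 and 4.82 CPM at 12 h, 55.3, 58.8 and 36.5 CPM at 24 h, and 121, 76.6 and 65.8 CPM at 48 h. Each of the last 3 times lay above all earlier ones. Its log2 change at 12 h against 2 h was 1.70 ± 0.29 (SE, edgeR adjusted p = 0.0096).

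A transcript of 2249 nucleotides was high at 2 h and low at both 6 h and 12 h. It had 1.88, 11.8 and 2.97 CPM at 0 h, 21.0, 18.3 and 18.1 CPM at 2 h, 0.645, 2.51 and 3.16 CPM at 6 h, 3.19, 1.95 and 1.67 CPM at 12 h, 27.8, 22.4 and 26.8 CPM at 24 h, and 41.6, 36.5 and 40.3 CPM at 48 h. The 12 h libraries did not overlap those of 2 h or 24 h. Its log2 change was -3.07 ± 0.27 (SE) at 12 h against 2 h (edgeR adjusted p = 0.0011) and 3.50 ± 0.28 (SE) at 24 h against 12 h (edgeR adjusted p = 0.0014).

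The largest ratio of 48 h to 0 h, 187, belonged to a transcript of 3028 nucleotides. It had 3.31, 1.32 and 2.81 CPM at 0 h, 6.81, 7.42 and 7.94 CPM at 2 h, 0, 1.01 and 0.780 CPM at 6 h, 1.23, 3.91 and 0.541 CPM at 12 h, 48.7, 84.3 and 37.0 CPM at 24 h, and 412, 493 and 483 CPM at 48 h. Its 48 h libraries were close together and far above all others. Its log2 change at 24 h against 12 h was 4.90 ± 0.64 (SE, edgeR adjusted p = 0.0073).

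Levels between transcripts were compared per length, as FPKM. The highest member at 0 h and at 6 h was a transcript of 1007 nucleotides, with 589.8 ± 369 FPKM at 0 h, 209 ± 67.9 FPKM at 6 h and 916 ± 320.2 FPKM at 48 h (mean ± SD, n = 3). The highest at 48 h was one of 1936 nucleotides, with 19.3 ± 13.4 FPKM at 0 h, 8.27 ± 7.44 FPKM at 6 h and 1423 ± 1211 FPKM at 48 h. In CPM its 48 h libraries held 1557, 1646 and 5628, so the third sets most of that mean and SD. The median over the 217 members was 11.1 FPKM at 0 h, 2.18 FPKM at 6 h and 31.0 FPKM at 48 h.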

How the data were processed

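Leaf RNA of 18 libraries was grouped by the sampling time in the titles. The authors deposited estimated counts per transcript, of which 89.6% were not whole, and FPKM values of the same transcripts and libraries. Per the file headers and IDs, transcripts came from a Trinity assembly; no source used here gives the aligner, counter or filters. Totals were 17933939 to 24731213 counts per library. Transcript lengths were inferred from counts divided by FPKM. The library denominators of FPKM are not given, so their ratios were taken from the data. A common factor was then searched that makes the lengths whole numbers, and the lengths were rounded. The members, lists and alternatives were chosen with earlier results of these data known.

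Counts were rounded, filtered with filterByExpr by time and scaled by TMM (edgeR 4.0.16, R 4.3.3), and CPM used TMM-scaled library sizes. The quasi-likelihood test used the 9 libraries of 2 h, 12 h and 24 h (common dispersion 0.23), with Benjamini-Hochberg adjustment over 45222 transcripts. The SE is the log2 change over the square root of F. Replicates differed beyond sampling noise (chi-square per degree of freedom of at least 10.9). IDs were named among members with at least 5 CPM in every 48 h library: the 2 largest called rises and the 2 lowest log2 changes at 24 h against 2 h. A planned description of other isoforms was void, as 0 members share a gene ID with another transcript. Alternatives used DESeq2 1.42.0 and limma 3.58.1 on log2 FPKM with pseudocounts of 1 and 0.1. Tables and figures used Python 3.11.15, pandas 2.3.3 and matplotlib 3.10.9.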

Additional observations from a re-analysis of the deposited data

How the results depend on the processing

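The number of transcripts meeting the rule was 217 and lay between 170 and 289 under the other scalings, averages, filters and leave-outs, but was 572 with a fold limit of 1.5 and 76 with a fold limit of 3. Leaving out one library at a time gave 188 to 289. With library sizes not scaled by TMM, 148 of the 217 were kept among 170, with mean FPKM 134 among 175, and with the median per time 149 among 201.

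At 24 h against 2 h, the members called higher were 91 (41.9%, against 8.54% of all transcripts tested). They were between 45 and 111 with one library left out, where 5.57% to 8.78% of all were called higher. Without 2 h replicate 2 and 12 h replicate 3 together they were 137 (63.1%, against 8.45%). The called lower were 2 (0.922%, against 7.93% of all), and between 1 and 4 with one library left out (5.24% to 9.25% of all). They were 1 with a filter of 10 CPM in 3 libraries (13.5% of all) and 4 without those 2 libraries (1.84%, against 7.55%). At 12 h against 2 h, the called higher were 7 (3.23%, against 4.21% of all). The DESeq2 test called 15 (6.91%, against 7.07%), and the fit of all 18 libraries 4 (1.84%, against 4.02%). With one library left out the number was between 1 and 21, where 1.48% to 4.35% of all were called higher. With 0 h replicate 2 and 2 h replicate 2 both left out it was 27 of 206 (13.1%, against 4.16%). The called lower were 13 (5.99%, against 3.2% of all and 5.56% within the same level limits). They were 22 by the DESeq2 test (10.1%, against 5.22% of all). With one library left out they were between 3 and 21, where 0.896% to 3.97% of all were called lower. At 24 h against 12 h, the called higher were 47 (21.7%, against 2.11% of all), and 102 by the DESeq2 test (47.0%, against 4.86%). They were between 18 and 61 with one library left out, where 0.274% to 2.63% of all were called higher. Without 2 h replicate 2 and 12 h replicate 3 they were 73 (33.6%, against 1.71%). The called lower were 0 in every setting run, where 0.268% to 7.04% of all were called lower. In the main fit they were also few among transcripts with only the 6 h dip (0.766%) or only the 48 h rise (1.02%). The leave-outs have fewer libraries; otherwise the cause was not tested.

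With the replicate number as a block, 74 members were called higher and 2 lower at 24 h against 2 h (7.03% and 6.69% of all transcripts). At 12 h against 2 h, 4 were called higher (1.84%, against 3.19% of all) and 10 lower (4.61%, against 2.36%). At 24 h against 12 h they were 40 and 0 (1.34% and 1.86% of all). Whether equal numbers pair the libraries is not given by the labels. Among 2 h, 12 h and 24 h, deviations of same-numbered libraries from their group means correlated between -0.15 and 0.16. Those of differently numbered libraries correlated between -0.1 and 0.17, so the correlations cannot settle it. Some log2 changes turned sign. TRINITY_DN16036_c0_g1_i3_8 at 12 h against 2 h ran from -0.77 (without 12 h replicate 3) to 5.46 with one library left out, and was -1.06 with 12 h replicate 3 and 2 h replicate 2 both left out. TRINITY_DN17300_c0_g1_i2_7 at 24 h against 12 h ran from -0.20 (without 24 h replicate 3) to 2.11 with one library left out, against 1.44 with all libraries. Members with few counts at 6 h limit how precisely the depth of the dip is known. The tests without pairs of libraries, and with members chosen without 0 h replicate 3, were added once the data had been seen.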
